A study of Mus musculus with 7 samples.

Results

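Stellate cells and portal fibroblasts are the matrix-producing mesenchymal cells of the liver, and 10 genes that mark them are described here in whole liver with and without Rbpj. The genes are Acta2, Des, Vim, Pdgfra, Pdgfrb, Lum, Dcn, Tagln, Thy1 and Eln. They were chosen by name, and every array probe that carries one of these names was used, which gave 10 probes in 37 spots, 1 probe per gene, out of 55681 probes with 35715 gene names. Whole-liver RNA of 7 mice aged 4 weeks, on a C57BL/6J background, was hybridised to 1-colour arrays with an array for each animal. Both groups carried Rbpj flox/flox, and they differed in the transgene, as the 4 Rbpj+/+ mice were AlfpCre- and the 3 Rbpj-/- mice AlfpCre+. AlfpCre is driven by regulatory elements of the albumin and alpha-fetoprotein genes and acts in hepatoblasts and their descendants, the hepatocytes and cholangiocytes, so the mesenchymal cells studied here are not its target. Rbpj-/- mice of this cross develop cholestasis, which is retention of bile in the liver.

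As background, a quiescent hepatic stellate cell lies between hepatocytes and the sinusoidal endothelium and stores vitamin A. After liver injury it can turn into a contractile, collagen-secreting myofibroblast, a step in which platelet-derived growth factor (PDGF) drives division and migration and alpha smooth muscle actin appears in the cell. Portal fibroblasts lie around the bile ducts, produce elastin and can become myofibroblasts too, mainly when bile flow is disturbed. RBPJ is the DNA-binding factor through which Notch receptors act on their target genes.

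The arrays used probes of 60 bases. The first 30 bases of the probes of Acta2, Lum and Vim are shown because these genes had the largest differences. The probes of Des and Dcn are shown up to the stop codon of the reading frame, in capitals, because both changed from not passing to passing under other scalings. No base run of 20 in any of the 10 probes occurred in a probe of another name on the array, on either strand.
Acta2: gttttgtggatcagcgcctccagttccttt
Lum: taagcatttgcacggttacttagtgaaact
Vim: gcagtttttcaggagcgcaagatagatttg
Des: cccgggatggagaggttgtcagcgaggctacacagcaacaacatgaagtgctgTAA
Dcn: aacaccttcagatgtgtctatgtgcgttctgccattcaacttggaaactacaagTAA

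In the coordinates of the array's design (mouse build mm9), the Acta2 probe lies on the minus strand at chr19:34316060-34316119, the Lum probe on the plus strand at chr10:97035210-97035269 and the Vim probe on the plus strand at chr2:13504232-13504291. The Dcn probe lies at chr10:96980233-96980292 and the Des probe has no position in the design. The probes of Pdgfra (chr5:75593888-75593947), Eln (chr5:135179129-135179188), Thy1 (chr9:43856591-43856650) and Tagln (chr9:45738097-45738156) were placed by the same design. Acta2, Des and Pdgfra are each printed in 10 spots on the array and the other genes in 1.

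Promoter sequence was at hand for 4 of the 10 genes, Acta2, Des, Pdgfra and Vim, from RefSeq (GRCm38.p6). In a window from 250 bases before to 50 bases after the start site, 4 motifs were searched on both strands, namely the CArG box of serum response factor, TATAAA, the TEAD core GGAATG and the RBPJ core TGGGAA. These motifs were found in 1.63%, 13.6%, 14.7% and 25.6% of all 32851 promoters of the table. The 250 bases before the start site are shown for both genes with a match, with the matches in capitals. Acta2 (chr19:34255374-34255623, minus strand) held GGAATG from position -146 to -141 and TGGGAA from -27 to -22 relative to the start site. Vim (chr2:13574061-13574310, plus strand) held TATAAA from -32 to -27. The windows of Des and Pdgfra held none of the 4 motifs, and no exact CArG box was found in any of the 4 genes. Near matches to the CArG box were not counted. The Acta2 bases shown hold ccctatatgg and ccttgttTGG, each with a single C or G within the A/T core. These matches are a description of letters and say nothing of binding.
Acta2: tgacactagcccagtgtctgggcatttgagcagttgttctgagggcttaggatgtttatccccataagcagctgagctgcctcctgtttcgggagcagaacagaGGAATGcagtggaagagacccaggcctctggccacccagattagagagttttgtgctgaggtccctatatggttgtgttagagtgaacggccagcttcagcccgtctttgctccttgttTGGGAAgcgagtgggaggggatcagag
Vim: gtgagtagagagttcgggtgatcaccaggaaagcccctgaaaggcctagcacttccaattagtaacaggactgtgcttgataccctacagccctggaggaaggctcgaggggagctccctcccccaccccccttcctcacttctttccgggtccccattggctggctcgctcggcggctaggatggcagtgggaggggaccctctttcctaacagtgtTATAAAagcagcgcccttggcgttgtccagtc

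All arrays lay on 1 slide, with the Rbpj+/+ arrays in row 1 and the Rbpj-/- arrays in row 2, so row and genotype cannot be told apart. Before normalization the 75th percentile of intensity was 57.5 to 103 on the Rbpj+/+ arrays and 118 to 143 on the Rbpj-/- arrays, and it was set to 0 on the log2 scale for each array. Between 41.1% and 64.9% of probes were well above background. The arrays of Rbpj +/+_1156 and Rbpj -/-_N3 stood apart with 61.8% and 64.9% and with median intensities of 18.7 and 29.6, against 4.99 to 7.75 on the other 5. Rbpj itself was lower in Rbpj-/- liver by its brighter probe (0.60 ± 0.34, SD, n = 4, against -0.54 ± 0.22, SD, n = 3; limma adjusted p = 0.0115), although it is unknown whether this probe lies in the deleted exons. Values below are log2 intensities relative to the 75th percentile of the array, and the order of the Rbpj+/+ animals is always Rbpj +/+_1155 first, next Rbpj +/+_1156, followed by Rbpj +/+_1024, with Rbpj +/+_991 last, and that of the Rbpj-/- animals is Rbpj -/-_N3 first, next Rbpj -/-_N5, with Rbpj -/-_2866 last. They can be compared between animals for a gene but not between genes.

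In Rbpj-/- liver 7 of the 10 genes were higher and 0 lower (limma, threshold of 0.1 on the adjusted p). Among all 24547 tested probes 14.3% were higher and 19.2% lower. The median log2 difference was 0.97 over the 10 genes and -0.12 over all tested probes. The 7 genes were Lum, Acta2, Vim, Pdgfra, Thy1, Pdgfrb and Tagln, with log2 differences from 1.97 down to 0.74, and in each of them the 3 Rbpj-/- animals lay above all 4 Rbpj+/+ animals, a separation found in 15.0% of all tested probes. Dcn, Des and Eln did not pass, and their genotypes overlapped. As the samples were whole liver, more cells of a type and more RNA per cell cannot be told apart. With all dim probes tested too, 3 of the 10 genes passed (Lum, Acta2 and Vim), and 2038 of 55681 probes did. Without the arrays of both Rbpj +/+_1156 and Rbpj -/-_N3 there were 5, with adjusted p = 0.108 for Pdgfra and 0.114 for Tagln.

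**Figure D1:**
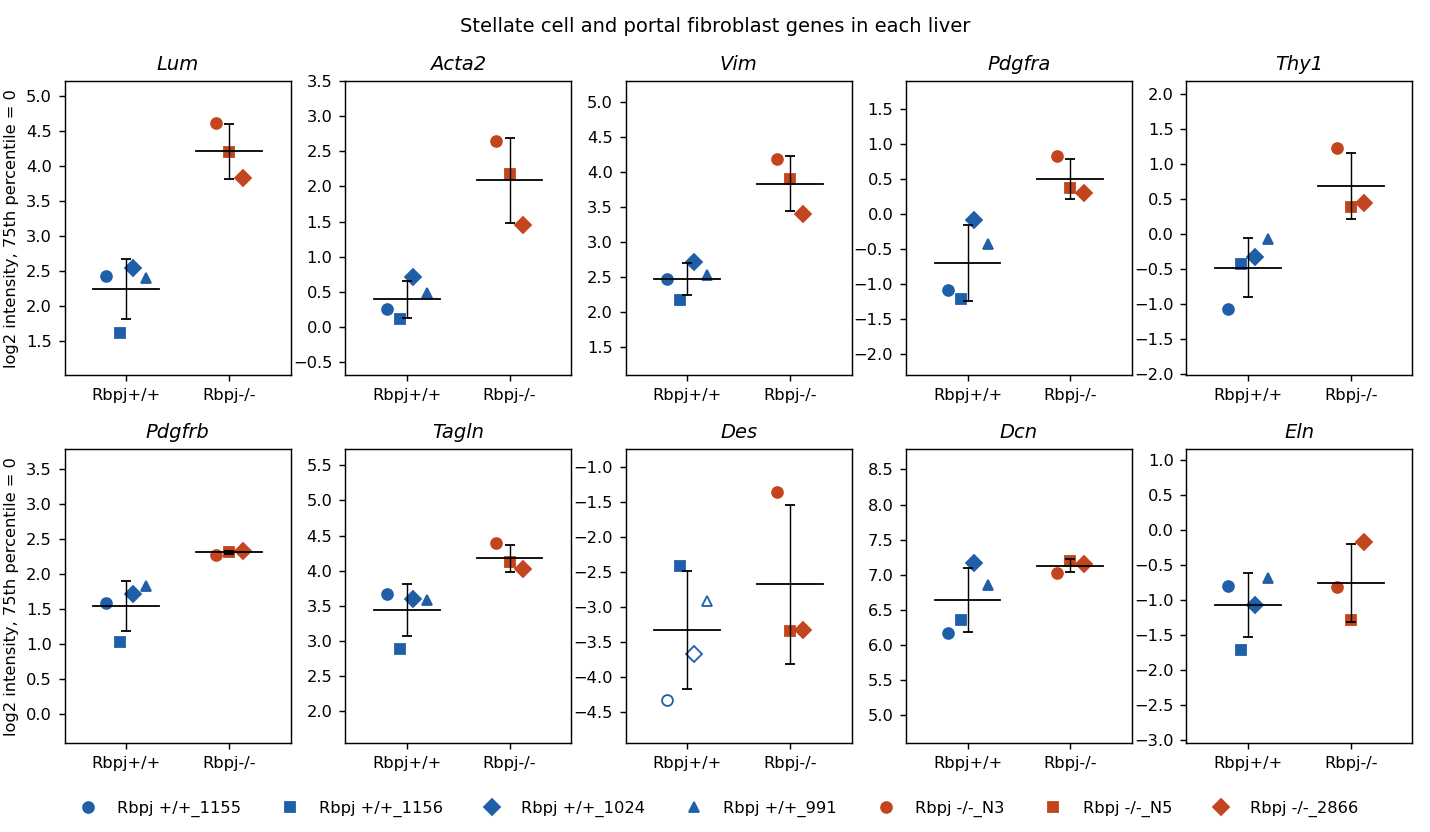
Log2 intensity relative to the 75th percentile of the array (y axis) for each of the 10 genes in the 4 Rbpj+/+ (blue) and 3 Rbpj-/- (red) livers, with a symbol per animal, the mean as a line and the SD as a bar. All panels span the same height in log2 units, and open symbols are values not well above background. The Rbpj-/- livers lie above all Rbpj+/+ livers in the first 7 panels and overlap with them for Des, Dcn and Eln.

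The contractile and cytoskeletal genes came first. Acta2 encodes alpha smooth muscle actin, the protein by which myofibroblasts are usually recognised. Its values were 0.26, 0.11, 0.71 and 0.48 in Rbpj+/+ and 2.65, 2.18 and 1.44 in Rbpj-/- liver. The lowest Rbpj-/- animal, Rbpj -/-_2866, was above the highest Rbpj+/+ animal, Rbpj +/+_1024. The log2 difference was 1.70 (standard error 0.30, 95% interval 1.03 to 2.37, limma adjusted p = 0.00603), which is 3.25-fold, and the exact two-sided permutation p was 0.0286, the smallest that 4 against 3 animals allow. The SD between the 10 spots of Acta2 was 0.10 to 0.18 within an array, less than the SD between animals of 0.26 in Rbpj+/+ and 0.61 in Rbpj-/- liver. Without Rbpj -/-_2866 the difference was 2.02 and without Rbpj -/-_N3 1.42, the ends of its range when 1 animal was left out.

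Tagln encodes transgelin, an actin-binding protein of smooth muscle and myofibroblasts. It read 3.67, 2.88, 3.59 and 3.58 in Rbpj+/+ and 4.39, 4.12 and 4.02 in Rbpj-/- liver. Of the 4 Rbpj+/+ animals 3 lay within 0.1 of each other and Rbpj +/+_1156 lay apart below them. The log2 difference of 0.74 (standard error 0.24, 95% interval 0.20 to 1.29, adjusted p = 0.0549 from limma, exact permutation p = 0.0286) was the smallest among the 7 genes that passed. It no longer passed at 0.05, without Rbpj -/-_N3 (adjusted p = 0.164), without Rbpj -/-_N5 (0.132) or with a shrinkage T statistic (0.107), and it was 0.45 without Rbpj +/+_1156 and Rbpj -/-_N3.

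Vim encodes vimentin, the intermediate filament of mesenchymal cells, which endothelial cells and leukocytes contain too. Its values were 2.47, 2.17, 2.71 and 2.53 in Rbpj+/+ and 4.17, 3.90 and 3.40 in Rbpj-/- liver. The Rbpj+/+ animals lay within a narrow band (SD 0.22), and every Rbpj-/- animal exceeded it. This gave a log2 difference of 1.36 (standard error 0.24, 95% interval 0.82 to 1.89, adjusted p = 0.00606 from limma, exact permutation p = 0.0286), or 2.56-fold. It passed under all 19 alternatives, with adjusted p-values from 0.000803 to 0.0745.

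Des encodes desmin, the intermediate filament of muscle that rodent stellate cells carry also in the quiescent state. It was dim, as 1 of 4 Rbpj+/+ arrays and all 3 Rbpj-/- arrays read it well above background, with intensities from 4.51 to 16.1 and from 11.7 to 55.2. Des was thus tested through the Rbpj-/- arrays, so the size of its difference is uncertain. Its values were -4.33, -2.41, -3.67 and -2.92 in Rbpj+/+ and -1.37, -3.34 and -3.33 in Rbpj-/- liver. Rbpj +/+_1156 and Rbpj -/-_N3, the arrays with brighter dim probes, were the highest of their genotypes, and the other values overlapped. The SD between the 10 spots reached 0.87 within an array. The log2 difference of 0.65 had a 95% interval from -0.66 to 1.96 (adjusted p = 0.433 from limma), and it was -0.15 with normexp background correction, 0.00 to 2 decimals without Rbpj -/-_N3 and 0.94 with quantile normalization, where it passed (adjusted p = 0.0748).

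The PDGF receptors followed. Pdgfra encodes the alpha receptor, which stellate cells and portal fibroblasts carry. It read -1.08, -1.21, -0.09 and -0.42 in Rbpj+/+ and 0.83, 0.36 and 0.30 in Rbpj-/- liver. The Rbpj+/+ animals fell into a lower and a higher pair, and the higher pair stayed below all Rbpj-/- animals. The log2 difference was 1.20 (standard error 0.31, 95% interval 0.50 to 1.89, adjusted p = 0.0246 from limma), and the exact permutation p was 0.0571. With normexp background correction it was 0.74, and with all dim probes tested it failed the threshold (adjusted p = 0.164). The SD between its 10 spots was 0.06 to 0.31 within an array.

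Pdgfrb encodes the beta receptor, the main receptor for PDGF-B on stellate cells and pericytes, and its probe lies at chr18:61244606-61244665 (mm9). Its values were 1.59, 1.03, 1.72 and 1.83 in Rbpj+/+ and 2.27, 2.32 and 2.33 in Rbpj-/- liver. The Rbpj-/- animals were almost equal (SD 0.03), while the Rbpj+/+ animals spread more (SD 0.35). Rbpj-/- liver was higher by 0.76 on the log2 scale (standard error 0.23, 95% interval 0.25 to 1.27, adjusted p = 0.0412 from limma, exact permutation p = 0.0286). Without Rbpj -/-_N5 the adjusted p was 0.119, without Rbpj -/-_2866 it was 0.101, and with all dim probes tested 0.225.

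Of the matrix genes Lum passed, while Dcn and Eln did not, which by itself does not show that they changed unequally. Lum encodes lumican, a small leucine-rich proteoglycan that binds collagen fibrils. It read 2.42, 1.61, 2.54 and 2.41 in Rbpj+/+ and 4.61, 4.19 and 3.83 in Rbpj-/- liver. The gap between the genotypes was wider than the range within either of them. The log2 difference of 1.97 (standard error 0.29, 95% interval 1.32 to 2.61, adjusted p = 0.00293 from limma, exact permutation p = 0.0286) was the largest of the 10 genes, and corresponds to 3.91-fold. It passed under all 19 alternatives, with values from 1.55 to 2.16.

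Dcn encodes decorin, another small leucine-rich proteoglycan of collagen fibrils, made by resting as well as activated fibroblasts. Its values were 6.17, 6.36, 7.16 and 6.85 in Rbpj+/+ and 7.02, 7.20 and 7.15 in Rbpj-/- liver. Rbpj +/+_1024 lay among the Rbpj-/- animals. Its log2 difference was 0.49 (standard error 0.26, 95% interval -0.10 to 1.08, adjusted p = 0.202 from limma, exact permutation p = 0.20). The outcome depended on the scaling, since the difference was 0.79 with quantile normalization (adjusted p = 0.0429) and 0.89 with normexp background correction (adjusted p = 0.00812).

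Eln encodes elastin, the core of elastic fibres and a product of portal fibroblasts. It read -0.80, -1.72, -1.07 and -0.69 in Rbpj+/+ and -0.81, -1.28 and -0.17 in Rbpj-/- liver. The genotypes overlapped over most of their range, and only Rbpj -/-_2866 lay above all Rbpj+/+ animals. The log2 difference was 0.31 (standard error 0.33, 95% interval -0.43 to 1.06, adjusted p = 0.511 from limma), and it was -0.01 with normexp background correction. The interval does not exclude differences of up to 1.06.

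Thy1 encodes the cell surface glycoprotein CD90, a marker of portal fibroblasts that T cells share. Its values were -1.07, -0.43, -0.33 and -0.08 in Rbpj+/+ and 1.24, 0.39 and 0.45 in Rbpj-/- liver. No Rbpj+/+ animal reached 0, and no Rbpj-/- animal fell below it. Between the genotypes the log2 difference was 1.17 (standard error 0.30, 95% interval 0.49 to 1.85, adjusted p = 0.0251 from limma, exact permutation p = 0.0286), or 2.25-fold. With normexp background correction it was 0.70, and with all dim probes tested the adjusted p was 0.167.

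**Figure D2:**
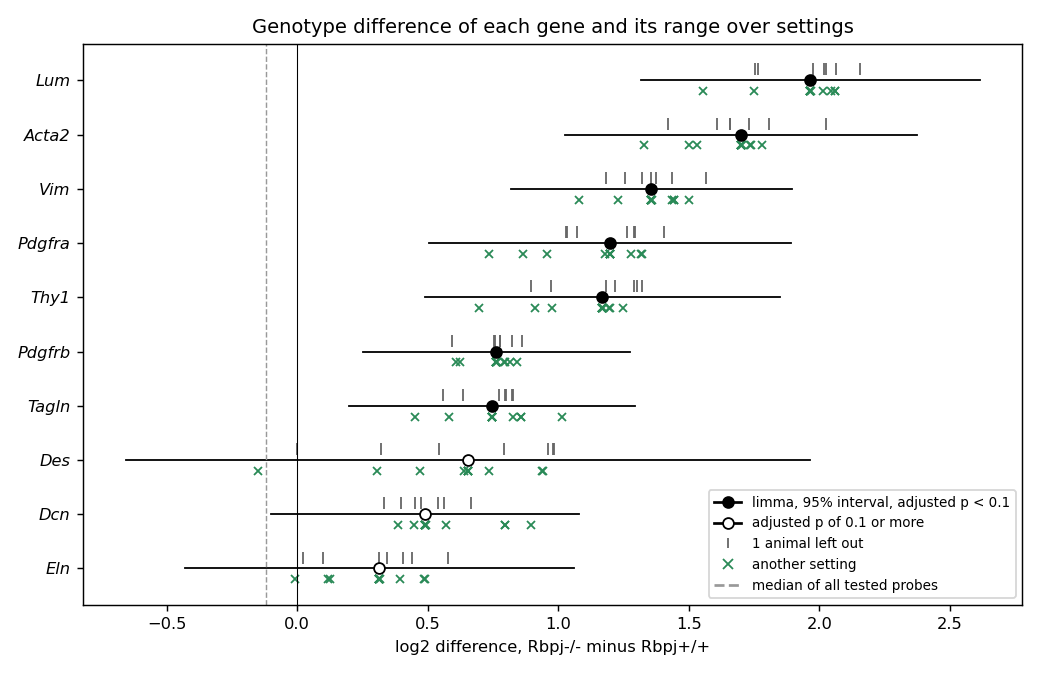
Log2 difference between Rbpj-/- and Rbpj+/+ liver (x axis) for the 10 genes, with the limma estimate and its 95% interval (filled where the adjusted p was below 0.1), the values with 1 animal left out (grey ticks) and under another setting (green crosses). The dashed line is the median of all tested probes, -0.12. Lum, Acta2 and Vim lie farthest to the right, and values of Des and Eln reach below 0.

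The order of the animals within a genotype differed between the genes. Among the Rbpj-/- animals Rbpj -/-_N3 was the highest for 7 of the 10 genes (Acta2, Des, Lum, Pdgfra, Tagln, Thy1 and Vim) and the lowest for Dcn and Pdgfrb. Rbpj -/-_2866 was the lowest for 5 and the highest for Eln and Pdgfrb, and Rbpj -/-_N5 was the lowest for Des, Eln and Thy1 and the highest for Dcn. Among the Rbpj+/+ animals Rbpj +/+_1156 was the lowest for 7 genes and the highest for Des, and Rbpj +/+_1024 and Rbpj +/+_991 were the lowest for none. Averaged over the 10 genes, Rbpj -/-_N3 deviated from the Rbpj-/- mean by 0.35 and Rbpj +/+_1156 from the Rbpj+/+ mean by -0.27, whereas over all tested probes the same animals deviated by 0.02 and -0.05. The 2 arrays with brighter dim probes thus lay at opposite ends, and without them the differences were smaller for all 10 genes, with 1.55 for Lum, 1.33 for Acta2, 1.08 for Vim and 0.61 for Pdgfrb. The part of the array itself in this pattern was not tested.

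Ratios between 2 genes on the same array do not depend on the percentile by which the whole array is shifted, so unequal change was examined for all 45 pairs. They can still change with quantile normalization or normexp background correction, under which the ratios were not computed. The log2 ratio of Lum to Tagln was 1.22 higher in Rbpj-/- liver, with an SD of the ratio of 0.10 in Rbpj+/+ and 0.20 in Rbpj-/- liver (exact permutation p = 0.0286). The log2 ratio of both proteoglycans, Lum to Dcn, differed by 1.48 (exact permutation p = 0.0571). The ratio of Acta2 to Tagln differed by 0.96 and that of Acta2 to Pdgfrb by 0.94 (exact permutation p = 0.0286 for each). With adjustment over the 45 pairs the lowest p was 0.129, so no pair passed.

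The genes around the receptors were read from a list of PDGF signalling with 6 genes, 5 of them tested. Of these, 4 were higher in Rbpj-/- liver and 0 lower, with a median log2 difference of 1.19. For genes represented by their brightest tested probe, 14.6% of all 18770 were higher and 19.6% lower, with a median of -0.13. The ligand genes Pdgfa (2.46 ± 0.19 against 3.69 ± 0.48, adjusted p = 0.0108), Pdgfb (-0.03 ± 0.41 against 1.16 ± 0.44, adjusted p = 0.0211) and Pdgfc (-1.31 ± 0.65 against -0.22 ± 0.05, adjusted p = 0.0434) rose by 1.23, 1.19 and 1.09 (SD, n = 4 and n = 3, limma). Pdgfc passed in 6 of 13 alternatives. It did not pass without Rbpj +/+_1024, Rbpj -/-_N3 or Rbpj -/-_N5 or with quantile normalization (adjusted p = 0.152), the highest adjusted p was 0.226, and its difference was 0.41 with normexp background correction. Plat, the tissue plasminogen activator that cleaves PDGF-C into its active form, passed with a difference of 1.70 (adjusted p = 0.0116). Its probe was well above background on 1 of 4 Rbpj+/+ and all 3 Rbpj-/- arrays and was tested through the latter, so this size is uncertain, and it was 0.23 with normexp background correction (adjusted p = 0.306). The other 3 higher genes were well above background on all arrays. Pdgfrl, a receptor-like gene, differed by 0.57 (95% interval -0.23 to 1.38) and Pdgfd was too dim to be tested. With all dim probes tested, 0 of the 5 genes passed in limma.

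The list of activated stellate cell and myofibroblast genes, which holds collagens, crosslinking enzymes and secreted factors, had 11 of 15 tested genes higher and 0 lower, with a median of 1.37. Timp1, an inhibitor of matrix-degrading metalloproteinases, rose by 4.81 (-2.74 ± 1.64, n = 4, against 2.07 ± 1.36, n = 3, adjusted p = 0.00765 from limma) and by 2.54 with normexp background correction. Its probe was well above background on 2 of 4 Rbpj+/+ and all 3 Rbpj-/- arrays and was tested through the latter, so the size is uncertain. Of the 11 higher genes 9 were well above background on all arrays. The list gave 8 higher genes without the arrays of Rbpj +/+_1156 and Rbpj -/-_N3 and 3 with all dim probes tested.

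The list of quiescent stellate cell genes gave 4 of 14 tested genes higher and 1 lower, with a median of -0.01. Its summed level was 110 to 208 in Rbpj+/+ and 79.1 to 117 in Rbpj-/- liver, and 62.0 to 96.8 against 58.4 to 84.5 without Ecm1, its brightest gene. Ecm1, which encodes a secreted matrix protein, fell by 1.36 (6.24 ± 0.54, n = 4, against 4.88 ± 0.45, n = 3, adjusted p = 0.0214 from limma), and its second probe by 0.72. Rgs5, a pericyte gene that dampens G protein signalling, differed by 1.36 in the other direction (adjusted p = 0.0656), but did not pass without Rbpj +/+_1156, Rbpj +/+_1024, Rbpj -/-_N3 or Rbpj -/-_2866 (highest adjusted p = 0.181). Leaving out 1 animal gave 3 higher genes without Rbpj +/+_1155 or Rbpj +/+_991, 2 without Rbpj +/+_1156, Rbpj -/-_N5 or Rbpj -/-_2866, 1 without Rbpj +/+_1024 and 0 without Rbpj -/-_N3. Gfap, a classical stellate cell marker, exceeded background clearly on 1 of the 7 arrays and was not tested.

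The portal fibroblast list gave 5 of 9 tested genes higher and 1 lower (median 0.60). Pi16, which encodes a secreted peptidase inhibitor and marks fibroblasts of vessel sheaths, rose by 2.89 (-2.92 ± 0.26, n = 4, against -0.03 ± 0.44, n = 3, adjusted p = 0.000406 from limma) and by 1.02 with normexp background correction. Its probe was well above background on 2 of 4 Rbpj+/+ and all 3 Rbpj-/- arrays and was tested through the latter, so the size of this difference is uncertain. Of the 5 higher genes of the list 4 were well above background on all arrays. Il33, an alarmin kept in the nucleus, rose by 2.12 (adjusted p = 0.00238) and by 1.18 with normexp background correction. The summed level of the list was 21.3 to 31.0 in Rbpj+/+ and 31.8 to 49.0 in Rbpj-/- liver. The count was 3 higher and 0 lower without Rbpj -/-_N5, and Slit2 was well above background on no array.

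Smooth muscle contractile genes gave 5 of 10 tested genes higher and 0 lower (median 0.53). Of the 5 higher genes 3 were well above background on all arrays. The others were tested through the Rbpj-/- arrays, so the sizes of their differences are uncertain. Cnn1 (calponin) was well above background on no Rbpj+/+ array and on all 3 Rbpj-/- arrays, and was tested through the latter. Its log2 difference was 2.80 (95% interval 1.42 to 4.18, adjusted p = 0.0135 from limma), a size that is uncertain. With Rbpj+/+ values raised to at least the dimmest detected value of each array, Rbpj-/- liver was 3.45-fold higher. This fold leaves out the spread between animals. With normexp background correction the difference was 0.32 and did not pass (adjusted p = 0.203). Tagln2, the transgelin that is also found outside smooth muscle, rose by 2.45 (4.44 ± 0.15, n = 4, against 6.89 ± 0.41, n = 3, adjusted p = 0.000491). Lmod1 and Pln, genes of differentiated smooth muscle, were well above background on no array, and Myh11, the smooth muscle myosin heavy chain, on 1 array of each genotype. Srf, Mkl1 and Mkl2, which encode the factor that binds CArG boxes and its cofactors, gave 0 of 3 calls (limma), with differences of -0.24, 0.33 and 0.48, and Myocd was well above background on no array. At an unadjusted p below 0.05, 0 of these 3 passed as well, and Mkl2 passed with normexp background correction (0.70, adjusted p = 0.0337). These values are those of the brightest probes, and the other tested probes of Srf and Mkl1 gave 0.21 and 0.89.

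Among the intermediate filament genes of mesenchymal cells other than Vim and Des, Plec was the only one of 3 tested genes that passed, with 0.52 (adjusted p = 0.0645 from limma). Plec encodes plectin, which links such filaments. It passed in 2 of 7 fits with 1 animal left out, those without Rbpj +/+_1155 or Rbpj +/+_1156.

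The small leucine-rich proteoglycans other than Lum and Dcn gave 0 of 6 tested genes higher and 2 lower, with a median of -0.65. Of all tested genes 14.6% were higher and 19.6% lower. Podn (podocan) fell by 0.99 (0.49 ± 0.28, n = 4, against -0.50 ± 0.44, n = 3, adjusted p = 0.0259 from limma) and Chad (chondroadherin), a cartilage gene, fell by 0.57 (adjusted p = 0.0497). Without Rbpj -/-_N5 neither passed (adjusted p = 0.103 and 0.113), and 1 of the list passed without Rbpj +/+_991 or Rbpj -/-_2866. Chad passed in 3 of 7 fits with 1 animal left out, and not with quantile normalization (limma adjusted p = 0.288). Aspn, Kera and Epyc were well above background on no array. Among the tested genes of this list together with Lum and Dcn, Lum was thus the single one with a higher call. Dcn passed only under other scalings.

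The elastic fibre list without Eln gave 7 of 11 tested genes higher and 1 lower (median 0.73). Fbn1 (fibrillin-1), which forms the microfibrils that carry elastin, rose 3.99-fold (log2 values -2.13 ± 0.71, n = 4, against -0.13 ± 0.50, n = 3, adjusted p = 0.00994 from limma), with a log2 difference of 0.78 with normexp background correction. It was well above background on 3 of 4 Rbpj+/+ and all 3 Rbpj-/- arrays and was tested through the latter, so that its fold is uncertain. The other 6 higher genes were well above background on all arrays. Mfap2, a microfibril protein, rose by 1.53 by its brighter probe and by 0.53 with normexp background correction, while its other probe gave 0.11. Efemp2 (fibulin-4), which brings the crosslinking enzyme to elastin, rose by 1.05 (adjusted p = 0.0104).

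The latent TGF-beta binding proteins, which attach to the same microfibrils, went in both directions. Ltbp2 rose by 1.04 (adjusted p = 0.0238 from limma) and Ltbp3 by 0.64 (adjusted p = 0.0700), while Ltbp4 fell by 0.98 (4.34 ± 0.32, n = 4, against 3.36 ± 0.31, n = 3, adjusted p = 0.0219). Loxl1, a crosslinking enzyme of elastin, differed by 0.73 (adjusted p = 0.0973) and Emilin1, a glycoprotein of elastic fibres, by 1.22 (adjusted p = 0.0534), which became 0.47 with normexp background correction (adjusted p = 0.108). With 1 animal left out, Ltbp3 passed in 3, Emilin1 in 2 and Loxl1 in 1 of 7 fits, and the list gave 4 higher genes without Rbpj +/+_1155 or Rbpj -/-_N3.

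**Figure D3:**
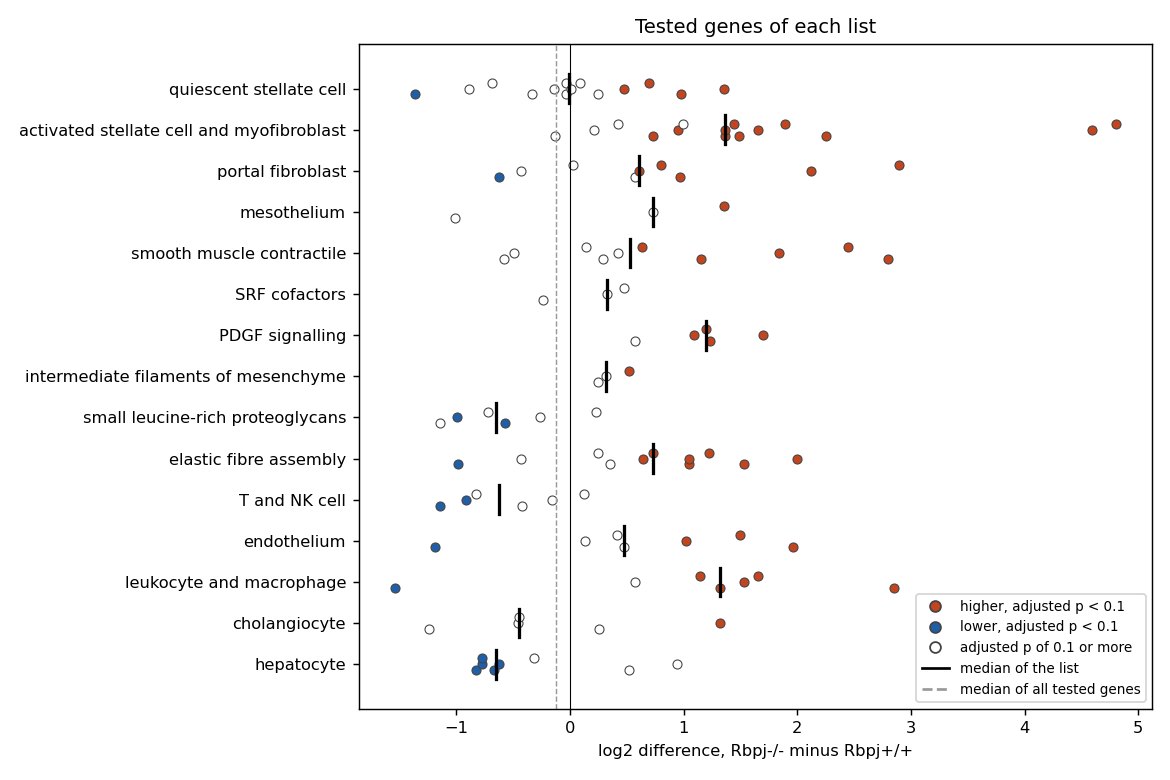
Log2 difference between Rbpj-/- and Rbpj+/+ liver (x axis) of every tested gene in each list, 1 point per gene, with the list's median as a black bar and the median of all tested genes, -0.13, as a dashed line. Red and blue points passed at an adjusted p below 0.1. The activated stellate cell list lies mostly to the right of 0 and the small leucine-rich proteoglycans mostly to the left.

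Markers of other cells that can contain the transcripts of these genes were read from the same livers. Leukocyte and macrophage genes were higher in 5 of 7 cases and lower in 1 (median 1.32), and their summed level was 63.3 to 80.1 in Rbpj+/+ and 125 to 165 in Rbpj-/- liver. None of them was missing from the arrays or below background throughout. The lower gene, Itgam, differed by -1.54 by its brightest probe but by 0.95 by its other tested probe. Csf1r, among the higher genes, differed by 1.14 by its brightest probe and by 1.93 and -0.41 by its others. Endothelial genes gave 3 of 7 higher and 1 lower, with a summed level of 35.1 to 48.7 against 46.3 to 65.1. The lower one was Kdr, which differed by -1.19 by its brightest probe but by 0.01 by its other tested probe. Of the 3 higher endothelial genes 2 were well above background on all arrays. Both cell types contain vimentin, and their part in the result for Vim was not tested.

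T and NK cell genes, listed because T cells carry Thy1, gave 0 of 6 tested genes higher and 2 lower, with a summed level of 11.4 to 14.1 in Rbpj+/+ and 8.17 to 10.9 in Rbpj-/- liver. For comparison, 19.6% of all tested genes were lower. The T cell receptor genes Cd3e and Cd3d differed by -0.92 (adjusted p = 0.0123 from limma) and 0.12 (adjusted p = 0.833), and the part of T cells in the result for Thy1 was not tested. The list gave 1 lower gene when Rbpj +/+_1156, Rbpj +/+_1024, Rbpj +/+_991, Rbpj -/-_N3 or Rbpj -/-_N5 was left out. Of the list of mesothelium, the cell layer on the liver surface, 1 of 3 tested genes passed, namely Krt8 with 1.36 (adjusted p = 0.00934 from limma). Krt8 encodes a keratin that hepatocytes and cholangiocytes share, and it made up most of the summed level of this list (56.6 to 98.9 against 151 to 268). Without Krt8 the sums overlapped (0.70 to 4.14 in Rbpj+/+ and 0.43 to 3.72 in Rbpj-/- liver). Msln, which is more particular to mesothelium, differed by -1.01 (adjusted p = 0.394), and Upk1b and Upk3b were too dim to be tested.

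Cholangiocyte genes gave 1 of 5 higher and 0 lower, with overlapping sums (1.43 to 2.72 against 1.83 to 3.67). When 1 animal was left out, 1 was higher without Rbpj +/+_991 or Rbpj -/-_2866 and 0 without any of the others, while 2 were lower without Rbpj +/+_1155 and 1 without Rbpj -/-_N3. With normexp background correction 1 was higher and 2 were lower. Hepatocyte genes gave 0 of 8 higher and 5 lower, with a summed level of 2765 to 3813 against 1924 to 2217, which did not overlap. This result depended on the scaling, as quantile normalization gave 2 higher and 1 lower and a median of -0.08 instead of -0.65. The list gave 2 lower genes without Rbpj +/+_1024 or Rbpj -/-_N3. The part of the hepatocyte level in the results for the 10 genes was not tested.

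**Figure D4:**
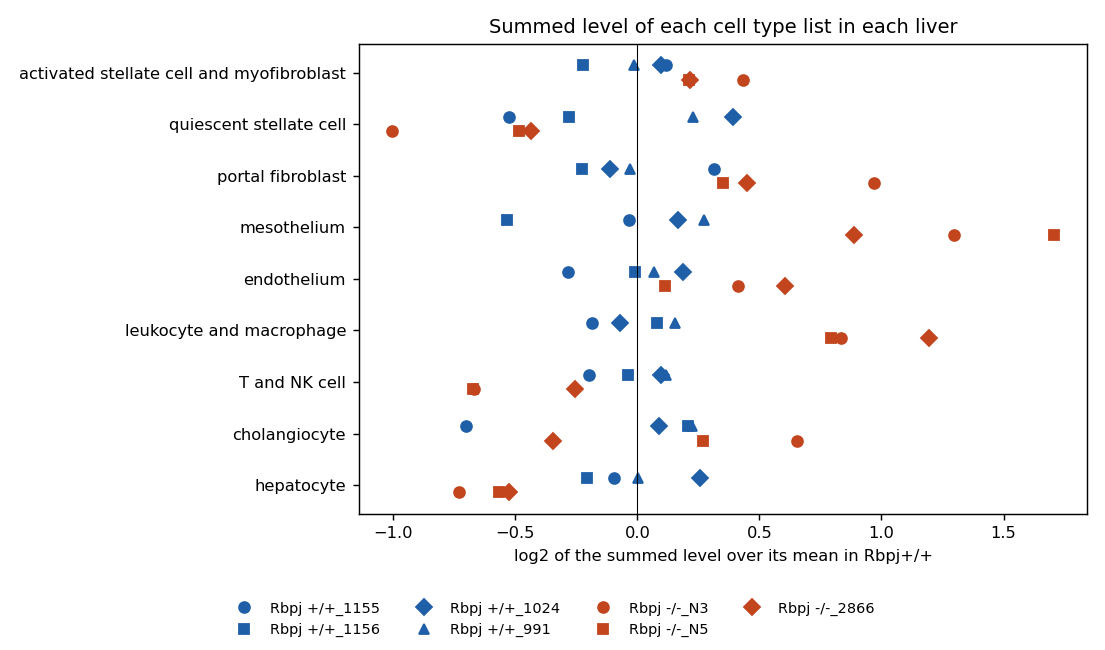
Summed level of each cell type list in each liver, as log2 of its ratio to the mean of the 4 Rbpj+/+ livers (x axis), with a symbol per animal, Rbpj+/+ in blue and Rbpj-/- in red. The sums of activated stellate cell, portal fibroblast, mesothelial, and leukocyte and macrophage genes were higher in all 3 Rbpj-/- livers than in all Rbpj+/+ livers, those of hepatocyte and T and NK cell genes were lower, and the others overlapped. The mesothelial sum was mostly Krt8, without which the genotypes overlapped.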

How the data were processed

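The authors hybridised RNA of single livers to Agilent SurePrint G3 mouse arrays and deposited the intensity of every spot after background subtraction and detrending by Feature Extraction 10.7.3.1, not normalized between arrays. The deposited series matrix holds log2 values made by the authors, which correlated across probes at r of at least 0.9997 on each array with quantile-normalized values centred per probe, while the methods name a percentile shift. It was used as an alternative.

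Here, control spots were dropped, as were spots with a non-uniformity or population outlier mark. The log2 intensities of repeated spots were averaged, and each array was shifted by its 75th percentile. Tested were probes positive, significant and well above background on every array of 1 genotype or both. The fit used limma 3.58.1 (R 4.3.3), with p-values adjusted by Benjamini-Hochberg over 24547 probes and called below 0.1. For single genes all 35 regroupings of the animals were enumerated in an exact two-sided permutation test. Intervals are 95% limma intervals. A gene of a list was read by its brightest tested probe. The summed level of a list adds the normalized intensities of all its genes on the array. For a probe below this detection on a whole genotype, a fold was computed against the dimmest detected value of each array, without allowance for the spread between animals.

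The 10 genes and the 15 lists were chosen with earlier results of these data known. Names were matched by the array's gene symbol or a RefSeq synonym. Genes named are Rbpj, the 10 genes, the 2 most changed of the genes that passed in each list, and every gene that passed in the lists of PDGF signalling, serum response factor and cofactors, proteoglycans and elastic fibres. For other cell types counts and dim genes were given. A gene that this rule names is not reported here. Pdgfrl, Pdgfd, Gfap, Cd3e, Cd3d, Srf, Mkl1, Mkl2, Myh11, Msln, Upk1b, Upk3b, Tpm1, Itgam, Csf1r, Kdr and Tek fall outside this rule and were named after their values were seen. The alternatives were normexp background correction (offset 50), quantile normalization, a percentile over probes seen on all arrays, all dim probes tested, detection on all 7 arrays, marked spots kept, limma with trend or array weights, a shrinkage T statistic, a threshold of 0.05, the series matrix, and arrays left out. The steps were tested on simulated data. Animals are separate mice and are not paired. Tables and figures used Python 3.11.15, pandas 2.3.3 and matplotlib 3.10.9.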

Additional observations from a re-analysis of the deposited data

Results flagged for a closer look

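In the 4 Rbpj+/+ livers the value of animal Rbpj +/+_1156 stood apart from the other 3 for 2 of the 10 genes by Dixon's ratio of gap to range. These were Lum, with 1.61 against 2.41 to 2.54, and Tagln, with 2.88 against 3.58 to 3.67. Chance flags about 1 in 20 groups, and both values come from the same array, which is also one of the 2 arrays with brighter dim probes. Without it the log2 difference was 1.75 for Lum and 0.56 for Tagln, and both still passed. Groups of 3 were not examined in this way.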

How the results depend on the processing

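Of the 10 genes, 7 passed in the higher direction, and between 5 and 7 did when 1 animal was left out (5 without Rbpj -/-_N5), 3 with all dim probes tested and 9 with quantile normalization or the series matrix. In the lower direction 0 passed under all 19 alternatives (limma). Lum, Acta2 and Vim passed under each of them. The sign changed for Des with normexp background correction (-0.15) and without Rbpj -/-_N3, as its difference ranged from -0.0019 without that animal to 0.98 without Rbpj -/-_N5 when 1 was left out. It also changed for Eln with normexp background correction (-0.0073). Of all tested probes 8241 passed, 2038 with all dim probes tested and 4673 to 9019 when 1 animal was left out, the lowest without Rbpj -/-_N5, and 5468 without Rbpj +/+_1024. No paired analysis was possible because the labels give animal numbers that the genotypes do not share. Signal over background limits Des, Plat, Cnn1, Timp1, Pi16, Fbn1 and Tek. The differences of these and of Mfap2, Emilin1, Pdgfc and Il33 were smaller with normexp background correction. That correction adds an offset of 50 to every intensity, which by calculation makes log2 differences of dim probes smaller. How much of the decrease came from this offset was not tested. The number of arrays limits the width of all intervals.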
